A study of Caenorhabditis elegans with 2 samples.

Results

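Binding of the GATA transcription factor ELT-1 was examined at the nuclear hormone receptor genes of Caenorhabditis elegans. The family was taken as every protein-coding gene of the WBcel235 annotation whose symbol starts with nhr-, together with daf-12, fax-1, unc-55, odr-7, sex-1 and dpr-1. The receptor genes nhr-23 and nhr-25 were not included. This gave 273 genes of 19985 protein-coding genes, of which 168 lie on chromosome V.

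ELT-1 carrying an eGFP tag was immunoprecipitated from L3 larvae, kept whole and of mixed sex, and the bound DNA was sequenced (ChIP-seq) with a labelled size range of 150 to 350, given without a unit. There was 1 group with biological replicates 1 and 2, both of strain OP354 with the genotype unc-119(tm4063) III; wgIs354, so every sample carries the mutation and the insertion. The sources used here do not state which promoter drives the tagged protein or how many animals made up a sample. Without a second condition there is no contrast, and shares are set beside those of all protein-coding genes with no test. In whole animals, strong binding in few cells and weak binding in many cannot be told apart.

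A cut on the irreproducible discovery rate (IDR), which rates how well peaks repeat by rank between replicates, gave a list of 1910. The relaxed lists held 30000 peaks for the pooled data, 29029 for replicate 1 and 30000 for replicate 2. Each peak has a signal, a value computed by the authors that is used here only to rank and describe peaks within a list. The IDR peaks were the 1910 strongest of the pooled list, with signals from 27.7 to 1900. A single IDR peak need not repeat in both replicates. Of the 1910, 28 lay on the mitochondrial genome. The other 1882, called nuclear below, had signals up to 1858. Of these, 1735 had a summit within 100 bp in both relaxed replicate lists. Ranks are given over the whole list. Read depth is unknown. The intervals given below are exact 95% Clopper-Pearson intervals. They cover counting error only and treat genes or peaks as independent, which neighbours are not.

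Nuclear hormone receptors are transcription factors with a zinc finger DNA-binding domain and, in most cases, a domain that binds small lipophilic ligands such as sterols and fatty acids. Nematodes have a far larger set of them than insects or vertebrates, mostly descended from a receptor of the HNF4 type, and a small group of members has direct counterparts in other animals. In C. elegans they are known to act in fat metabolism, detoxification, larval timing, neuronal identity and the formation of the epidermis. ELT-1 is a GATA factor known to be required for epidermal fate. GATA factors recognise WGATAR, where W is A or T and R is A or G.

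The sequences at the strongest receptor peaks show how the GATA site lies in them. The first set gives the 3 strongest distal summits, the second the strongest promoter summits that have the site within 50 bp, and the third the strongest promoter summits that lack it. Each is the plus strand of the RefSeq WBcel235 genome (ce11), 5′ to 3′. Capitals mark AGATAA or AGATAG or TGATAA or TGATAG on either strand, so that TTATCT is AGATAA read on the other strand. Windows run 50 bp to each side of the summit. Where such a window meets an annotated UTR, at nhr-152 and nhr-94, at nhr-168 and at the distal nhr-32 summit, only 30 bases around the site or, without a site, around the summit are printed.
nhr-17, distal, chrX:12671780-12671880: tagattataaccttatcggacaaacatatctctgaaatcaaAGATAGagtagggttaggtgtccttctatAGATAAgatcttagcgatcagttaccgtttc
nhr-35, distal, chrX:4529137-4529237: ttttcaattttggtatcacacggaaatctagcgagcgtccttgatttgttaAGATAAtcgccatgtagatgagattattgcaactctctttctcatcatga
nhr-32, distal, chrX:13248458-13248487: atttatcgacgtAGATAAtcttttgtacaa
nhr-152 and nhr-94, promoter, chrV:7686426-7686455: gcactattaattAGATAAcatcttagatcg
nhr-155, promoter, chrV:539182-539282: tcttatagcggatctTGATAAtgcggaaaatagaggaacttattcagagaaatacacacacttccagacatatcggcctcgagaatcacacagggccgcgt
nhr-19, promoter, chrII:9606119-9606219: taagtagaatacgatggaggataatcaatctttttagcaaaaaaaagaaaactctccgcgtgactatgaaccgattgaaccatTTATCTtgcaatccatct
nhr-175, promoter, chrV:13866504-13866604: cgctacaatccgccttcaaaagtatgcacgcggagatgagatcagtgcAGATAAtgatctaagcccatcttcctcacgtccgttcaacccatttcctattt
nhr-168, promoter, chrV:13333583-13333612: tgttatcggtggcctaatcgggatcttcgg
nhr-32, promoter, chrX:13251422-13251522: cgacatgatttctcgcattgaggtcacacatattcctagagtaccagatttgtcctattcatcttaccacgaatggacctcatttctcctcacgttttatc
nhr-171, promoter, chrV:7511845-7511945: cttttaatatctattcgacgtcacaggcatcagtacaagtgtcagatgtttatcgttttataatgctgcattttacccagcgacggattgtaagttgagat

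The nhr-17 window, at the strongest peak of any receptor gene, holds AGATAG and AGATAA. In it the nearest site centre is 6.5 bp from the summit, and it is 3.5 bp away at nhr-35 and 0.5 bp at nhr-175. The windows of nhr-168, nhr-32 (promoter) and nhr-171 have no WGATAR. That says only that these letters are absent within 50 bp of the summit.

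ELT-1 peaks lay at the promoters of 32 receptor genes. A summit from 1000 bp upstream to 200 bp downstream of a transcript start was found for 32 of 273 members, 11.7% (8.16 to 16.1), against 5.03% of all protein-coding genes. Among members with any pooled summit in that window the count was 32 of 133, 24.1% (17.1 to 32.2), against 12.2% of such genes over the genome. Any pooled summit was present at the promoters of 48.7% of members (42.6 to 54.8), against 41.2% of all genes. Members had a mean of 1.61 annotated starts per gene, and those with an IDR promoter summit 2.09, against 1.47 over all protein-coding genes. The part of the number of starts in these shares was not tested.

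The replicates gave similar shares on their own. Among the 1910 strongest peaks of replicate 1, a promoter summit was found for 27 members, 9.89% (6.62 to 14.1), against 4.59% of all genes. The same number of strongest peaks of replicate 2 gave 32 members, 11.7%, against 5.03%.

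The strongest promoter peak lay at the divergently arranged genes nhr-152 (WBGene00015705) and nhr-94 (WBGene00003684), at chrV:7686307-7686529. Its signal was 149 in the IDR list, 52.0 in replicate 1 and 104 in replicate 2. The summit was 48 bp downstream of the nhr-152 start, in its 5′ UTR, and 63 bp upstream of an nhr-94 start, so it lies in the promoter windows of both genes. At nhr-168 (WBGene00008221, peak chrV:13333482-13333704) the signal was 141, with 65.9 in replicate 1 and 71.8 in replicate 2. This was the strongest promoter peak of a receptor gene in replicate 1, and it is 197 bp upstream of a start, within a 5′ UTR of a longer transcript of the same gene.

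At nhr-155 (WBGene00015758, peak chrV:539132-539365) the signal was 121, with 48.7 in replicate 1 and 73.2 in replicate 2. At nhr-19 (WBGene00003618, peak chrII:9606081-9606233) it was 105, with 35.8 and 72.1 in the replicates. At nhr-175 (WBGene00008630, peak chrV:13866463-13866610) it was 102, with 35.9 and 64.2. All of these summits were intergenic, at 228, 643 and 137 bp upstream of the start. After these 5 peaks the signals dropped to 68.4 and below, and 4 of the 5 had WGATAR within 50 bp, the exception being nhr-168.

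**Figure D1:**
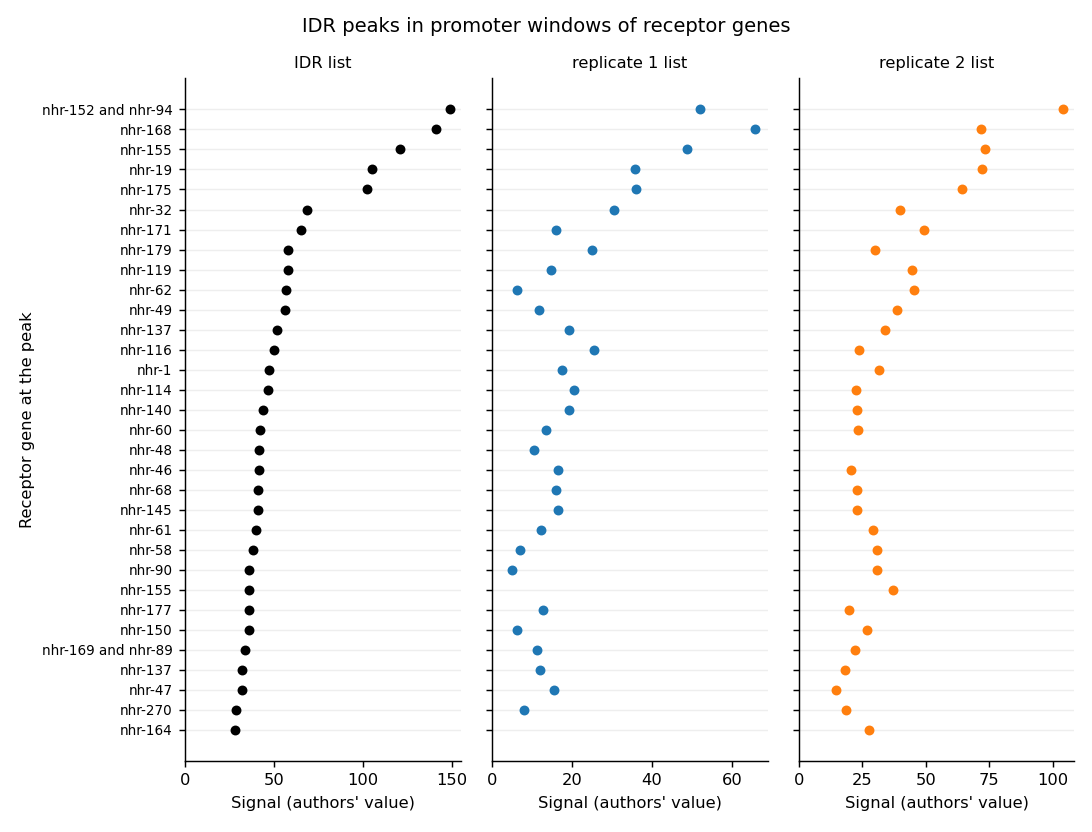
Signal of each IDR peak in the promoter window of a receptor gene, in the IDR list (left), the replicate 1 list (middle) and the replicate 2 list (right), each on its own linear axis in the authors' signal units; a missing point means no summit within 100 bp in that list. The 5 strongest peaks, from 102 to 149 in the IDR list, are also the 5 strongest in both replicates, and the order of the others differs between replicates.

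Among the other promoter peaks, nhr-32 had a signal of 68.4 (30.6 in replicate 1, 39.9 in replicate 2), nhr-171 65.4 (16 and 49.2), nhr-179 58.0 (24.9 and 30) and nhr-119 57.8 (14.8 and 44.6). All 4 were among the 1910 strongest peaks of both replicates. Next were nhr-62 and nhr-49 (described below), nhr-137 at 51.9, nhr-116 at 49.9, nhr-1 at 47.1, nhr-114 at 46.8, nhr-140 at 43.9, nhr-60 at 42.2, nhr-46 and nhr-48 at 41.3, nhr-68 at 41 and nhr-145 at 40.7. At 40.0 and below were nhr-61, nhr-58, nhr-90, nhr-150, nhr-177, the pair nhr-89 and nhr-169 that shares a peak, nhr-47, nhr-270 and nhr-164. The last 2 had the lowest signals, 28.8 and 28.0, just above the lowest of the IDR list.

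Some of these promoter peaks were uneven between the replicates. The nhr-62 peak was at 45.4 in replicate 2, rank 315, but at 6.29 in replicate 1, rank 5666. The nhr-90 peak, at 36 in the IDR list, was at 30.6 in replicate 2 and 5.06 in replicate 1. Both ranked below the 1910 strongest of replicate 1. The nhr-164 peak and a second nhr-155 peak, at 28.0 and 35.9 in the IDR list, had no summit within 100 bp in the replicate 1 list, and the nhr-48 peak had none in the replicate 2 list.

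Of the 32 promoter peaks, 31 had a receptor gene as the nearest protein-coding start. The exception was the peak counted for nhr-68, which lay in a coding exon of H12C20.7, 23 bp from that gene's start and 473 bp upstream of nhr-68. The nhr-90 and nhr-47 peaks also lay in the promoter windows of srlf-36 and dnj-19. Of the 34 combinations of a promoter summit and a receptor gene, 26 had the summit upstream of the start. By annotation, 19 promoter summits were intergenic, 6 in a UTR, 4 in a coding exon and 3 in an intron.

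Distal peaks outnumbered promoter peaks at these genes, in a search window that is also wider. A summit outside the promoter window but within 5 kb of a start was found for 57 members, 20.9% (16.2 to 26.2), against 12.2% of all protein-coding genes. Promoter and distal summits together reached 76 members, 27.8% (22.6 to 33.6), against 15.7%. The other 197 members had none within 5 kb, and their nearest IDR summit was at a median distance of 38702 bp from a start. In all, 97 IDR peaks lay at members, 32 of them promoter peaks and 65 distal. The median signal was 43.1 for promoter and 51.5 for distal peaks, and 47.9 together, against 40.2 for the nuclear IDR peaks that lay at no member.

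The strongest peak of the family was the distal peak of nhr-17 (WBGene00003616), at chrX:12671669-12671972, 3976 bp upstream of its start. Its signal was 387, with 195 in replicate 1 and 196 in replicate 2. It ranked 9 in the IDR list, 15 in replicate 1 and 12 in replicate 2, and was more than 2 times as strong as any other peak of the family. A weaker peak, at 52.2, lay 2689 bp upstream of the same gene. The nhr-17 promoter window itself had a pooled summit of 5.97 only.

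The next distal peaks were also on X and upstream of the gene. The nhr-32 peak (chrX:13248347-13248559, WBGene00003626), 3531 bp upstream, had a signal of 152, with 59.2 in replicate 1 and 92.7 in replicate 2. The summit lay in the 5′ UTR of K08H2.7, 4 bp from the start of that gene, so it is also a promoter peak of K08H2.7. The nhr-35 peak (chrX:4529056-4529294, WBGene00003628), 3504 bp upstream, was at 149, with 57.2 and 91.5 in the replicates. The nhr-71 peak (chrX:13744640-13744837, WBGene00003661), 2573 bp upstream, was at 118, with 57.9 and 59.0, and another peak 1612 bp upstream was at 83.5. Both nhr-35 and nhr-71 were the nearest protein-coding genes.

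On chromosome IV, an intronic peak of nhr-43, 924 bp downstream of a start, had a signal of 113, with 25 in replicate 1 and 85 in replicate 2. The nhr-138 peak, 1871 bp upstream, was at 103 (38.5 and 62.1). An nhr-46 peak 1013 bp upstream, just outside the promoter window, was at 85.6 (36.1 and 52.3). On X, an intronic peak of nhr-91 was at 89.8 (39.9 and 53.2) and a peak 3291 bp upstream of nhr-1 at 86.9 (41 and 43.8). The nhr-251 peak on V, 3385 bp upstream, was at 84.3 (31.5 and 47.5). All of these were among the 1910 strongest of both replicates. The nhr-138 and nhr-251 peaks had no WGATAR within 50 bp, and the others named in this group did.

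**Figure D2:**
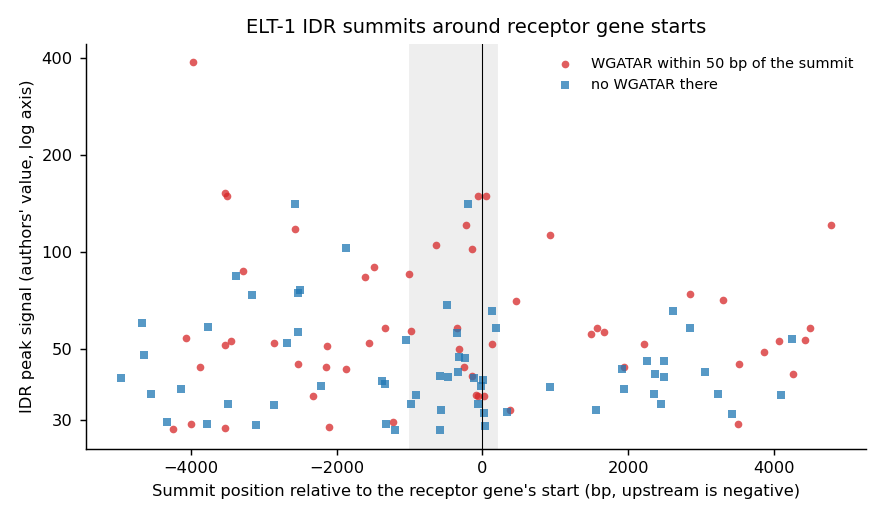
Position of IDR summits relative to the start of a receptor gene (x axis, bp, upstream negative) against IDR signal (y axis, log scale, authors' value). Each point is 1 summit at 1 gene, the shaded band is the promoter window, red circles have WGATAR within 50 bp and blue squares do not. The highest point, at 387, lies 3976 bp upstream of nhr-17, and points are found on both sides of the start across the whole 5 kb.

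Distal summits lay upstream in 50 of 86 combinations of summit and gene. Of the 65 distal peaks, 48 were intergenic, 14 intronic, 2 in a UTR and 1 in a coding exon. A receptor gene was the nearest protein-coding start for 52 of them, and 6 lay in the promoter window of a gene outside the family. Apart from the nhr-32 peak, these were 2 peaks upstream of nhr-137 at the collagen gene col-172, and peaks counted for nhr-234, nhr-155 and nhr-85 at Y38E10A.17, C14C6.3 and hpo-2. With each summit given only to the gene with the nearest start, 35 members had a distal summit in place of 57. The share of all genes under that rule was not computed, so the 35 cannot be set beside the 12.2% above. The part of summits counted for several genes in the shares of 20.9% and 12.2% was not tested.

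Several receptor genes had a series of peaks; those named next were chosen after their values were seen, as the 9 members with 3 or more. The most were 5, at nhr-46 and nhr-137. At nhr-46 (WBGene00003636, IV) the promoter summit, at 41.3, lay in an intron, 150 bp upstream of an internal start. The other 4 were 1013, 2527, 3541 and 4651 bp upstream of another start, the 5′ end of the gene. Their IDR signals were 85.6, 56.4, 51.5 and 47.9, highest at the summit nearest to that 5′ end and lowest at the farthest. In the same order they were at 36.1, 18.4, 25.9 and 15.3 in replicate 1. In replicate 2 they were at 52.3, 31.1, 22.5 and 29.8. Both replicates had the highest value at the nearest summit, but only replicate 1 had the lowest at the farthest. The summit at 1013 bp is just outside the promoter window, and its match in replicate 2, at 52.3, lay inside it. At nhr-137 (WBGene00003727, X) the signals were 51.9 and 32.2 in promoter windows and 32.2, 52.0 and 28.2 outside them, the last 2 being the peaks at col-172.

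The genes nhr-155 and nhr-270 had 4 peaks each. In nhr-155 the strongest was in the promoter window, whereas nhr-270 had its promoter peak at 28.8 and a distal one at 73.9. There were 3 peaks at nhr-19, nhr-132, nhr-251, nhr-3 and nhr-1. Of the nhr-132 peaks, 2 were the promoter peaks of its neighbour nhr-155 and the third was the promoter peak of nhr-58. At nhr-3, all 3 were downstream of the start, at 53.3, 43.2 and 36.2. In all, 29 members had 2 or more peaks and 47 had 1. Peaks per gene were not counted over all protein-coding genes, so these numbers only describe the members.

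The chromosomes that hold most of the family were not those with the most peaks per gene. Chromosome V carries 61.5% of the members but 34.0% of the member peaks, 33 peaks or 0.196 per member. X carries 9.52% of the members and 25.8% of the peaks, 25 peaks or 0.962 per member. II had 12 peaks for 15 members, 0.8 per member. A promoter or distal summit was found at 39 of 168 members on V, 23.2% (17.1 to 30.3), against 12.7% of protein-coding genes there, and at 12 of 26 on X, 46.2% (26.6 to 66.6), against 21.1%. On II it was found at 8 of 15, 53.3% (26.6 to 78.7), against 14.7%, where the neighbours nhr-72 and nhr-257 share both of their peaks. On IV it was 9 of 33, 27.3% (13.3 to 45.5), against 13.9%.

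On the other 2 chromosomes, the share was 6 of 23 on I, 26.1% (10.2 to 48.4), against 17.2%, and 2 of 8 on III, 25% (3.19 to 65.1), against 17.3%. With so few members the intervals on these chromosomes hold the background share, and no difference was detectable.

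**Figure D3:**
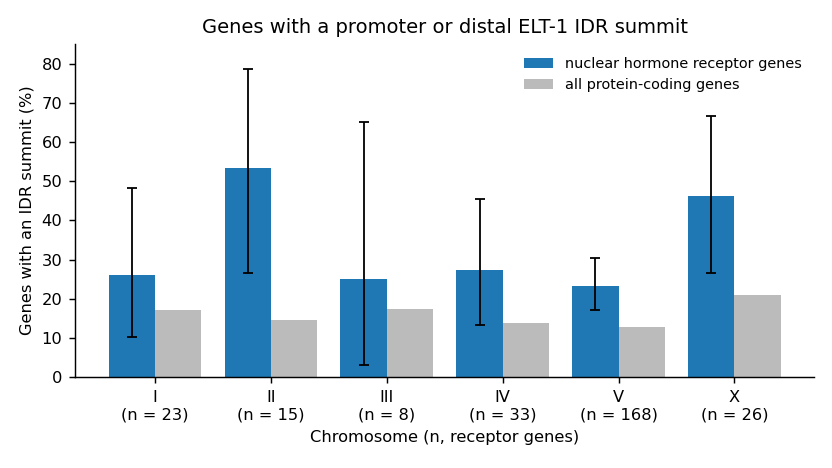
Share of genes with an IDR summit in the promoter window or within 5 kb of a start (y axis, %), by chromosome (x axis, with the number of receptor genes). Blue bars are receptor genes with exact 95% intervals and grey bars are all protein-coding genes of that chromosome. The receptor share was above the grey bar on every chromosome, from 23.2% on V to 53.3% on II, and on I, III and IV the interval reaches below the grey bar.

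Promoter peaks made up unequal shares of the member peaks by chromosome. On V, 20 of 33 member peaks were promoter peaks, 60.6% (42.1 to 77.1), while on X 5 of 25 were, 20% (6.83 to 40.7), and on I to IV 7 of 39, 17.9% (7.54 to 33.5). Over IDR peaks within 5 kb of any protein-coding gene, 51.3% on V, 43.3% on X and 46.3% on I to IV lay in a promoter window. The value on V was thus near its background and the other values were below theirs. The background counts a promoter window of any gene and the member share only those of members, so it is set higher by its definition. In promoter windows alone, summits were found for 20 of 168 members on V, 11.9% (7.43 to 17.8) against 3.78% of genes there, and for 4 of 26 on X, 15.4% (4.36 to 34.9) against 6.59%. On I it was 4 of 23, 17.4% (4.95 to 38.8) against 5.32%, and on II 3 of 15, 20% (4.33 to 48.1) against 4.76%. On III it was 0 of 8 (0 to 36.9) against 6.55%, and on IV 1 of 33, 3.03% (0.0767 to 15.8) against 4.15%. The interval lay above the background on V and held it on X, I, II, III and IV. The strongest distal peaks were on X, and 4 of the 5 strongest promoter peaks were on V. The difference between chromosomes was not tested.

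Many receptor genes stand close together, mostly on V. Members less than 10 kb apart, on any chromosome and either strand, were taken as a run. By this, 159 members were in 44 runs of 2 or more and the others stood alone. A promoter summit was found for 18 of the former, 11.3%, and 14 of the latter, 12.3%, against 5.03% of all genes. In the 9 runs of 5 or more members, 3 of 73 members had one, 4.11% (0.856 to 11.5), which is near the 5.03% of all genes and the 3.78% of genes on V. These were nhr-177 and nhr-179, which share a run, and nhr-140. Of these long runs, that from nhr-122 to nhr-274 is on IV and the others are on V. In these long runs a pooled promoter summit was present at 39.7% of members, near the 41.2% of all genes, and at 53.5% of the members that stood alone. The longest run, 12 genes from nhr-123 to nhr-131 at chrV:451451-497297, had no IDR promoter summit.

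GATA sites were present at close to as many receptor peaks as not. WGATAR, searched as AGATAA and AGATAG and TGATAA and TGATAG on both strands, lay within 50 bp of 46 of 97 member summits, 47.4% (37.2 to 57.8). The share was 40% of all nuclear IDR summits, 22.3% of nuclear pooled summits and 19.8% of all genome positions. Distal member summits had it in 33 of 65, 50.8% (38.1 to 63.4), and promoter summits in 13 of 32, 40.6% (23.7 to 59.4). All nuclear IDR summits outside and inside promoter windows had it in 45% and 33.5%. By chromosome it was in 15 of 25 peaks on X, 15 of 33 on V and 16 of 39 elsewhere.

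Distances of sites from the summit were bounded by the search within 50 bp and were not taken for other peaks. Among the 46 summits with a site, the nearest site centre was at a median of 14 bp, and within 20 bp in 29 of them. Of these 46 windows, 33 had 1 site, 12 had 2 and 1 had 4. AGATAA was the most frequent form, in 35 windows or 36.1% of member summits, against 23.3% of all nuclear IDR summits. AGATAG was in 9 (9.28% against 9.83%), TGATAA in 6 (6.19% against 9.19%) and TGATAG in 2 (2.06% against 3.93%).

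Peaks of higher signal had the site more often. Of the 48 stronger member peaks, with signals of 48.9 or more, 32 had WGATAR, 66.7% (51.6 to 79.6), against 51.4% (47.3 to 55.5) of the 595 other nuclear IDR peaks in that range. Of the 49 weaker ones 14 had it, 28.6% (16.6 to 43.3), against 33.6% (30.9 to 36.4) of 1190. In both ranges the interval of the receptor peaks overlapped that of the other peaks. All 6 windows with TGATAA and both with TGATAG were among the stronger peaks.

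**Figure D4:**
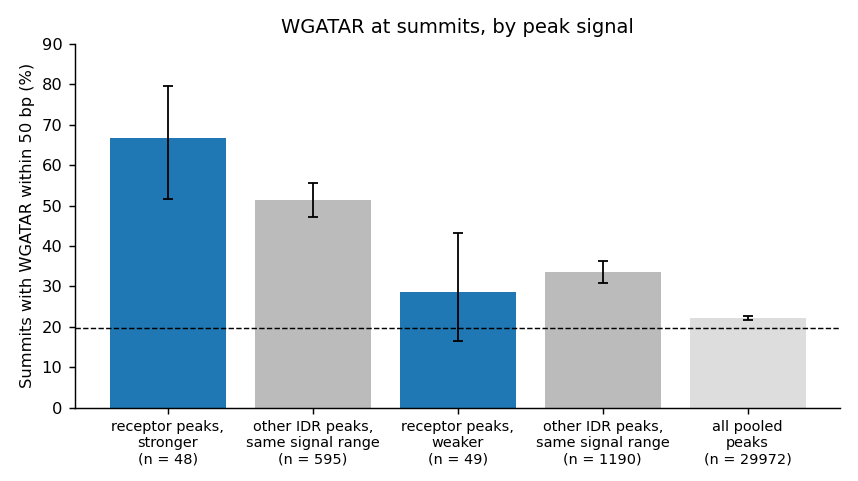
Share of summits with WGATAR within 50 bp (y axis, %), for stronger and weaker receptor peaks (blue), other nuclear IDR peaks of the same signal range (grey) and all nuclear pooled peaks (light grey), with exact 95% intervals. The dashed line is the share of all genome positions, 19.8%. The stronger receptor peaks are at 66.7% and the weaker ones at 28.6%, whose interval reaches below the line.

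Most receptor peaks were found in both replicates. Of the 97 member peaks, 94 had a summit within 100 bp in both relaxed replicate lists. Among the 1910 strongest peaks of each replicate, 75 were matched in replicate 1, 86 in replicate 2, 68 in both (70.1%) and 4 in neither. Over all nuclear IDR peaks, 55.4% were matched in both. Member peaks have higher signals than the rest, and the part of this in the match was not tested. Across the 94 peaks, the correlation of log2 signal between replicates was 0.593 by Pearson and 0.563 by Spearman, as a description over peaks that share the same libraries.

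**Figure D5:**
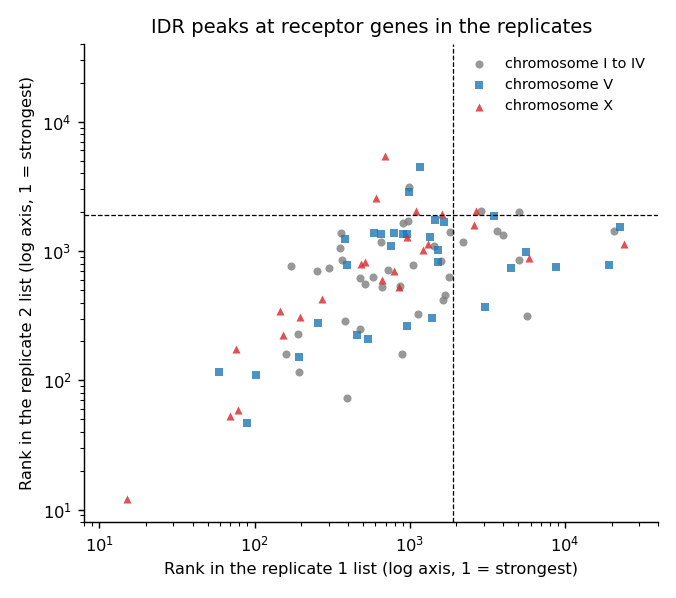
Rank of each receptor IDR peak in the replicate 1 list (x axis) and the replicate 2 list (y axis), both log axes with 1 as the strongest, by chromosome, for the 94 peaks found in both lists. Dashed lines mark rank 1910. Of the 97 peaks, 68 lie on the strong side of both lines, and more lie beyond the replicate 1 line than beyond the replicate 2 line.

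Of 12 receptors with direct counterparts in insects and vertebrates, 1 had an IDR promoter summit, 8.33% (0.211 to 38.5), against 5.03% of all genes. A promoter or distal summit was found for 4 of the 12, against 15.7% of all genes. The promoter peak was that of nhr-48, which belongs to the same subgroup as daf-12, with a signal of 41.3 at 581 bp upstream, 10.6 in replicate 1 and no replicate 2 summit within 100 bp. Replicate 2 did have a summit farther off in the same promoter window, at 32.6, rank 641. It also had a distal peak at 28.3, which was at 18.7 and 9.75 in the replicates. Matched within 100 bp, the promoter peak was among the 1910 strongest of neither replicate and the distal one of replicate 1 only. The count of 1 became 0 when only IDR peaks matched among the 1910 strongest of 1 given replicate were kept, whichever replicate it was. That match needs a summit within 100 bp, which the replicate 2 summit at rank 641 was not. The count was also 0 with a window of 500 bp upstream to 100 bp downstream, and 2 with 2000 bp upstream to 500 bp downstream.

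The strongest peak of this group was the intronic one of nhr-91, a relative of the vertebrate germ cell nuclear factor, at 89.8. The distal peak counted for unc-55, a COUP-TF relative that sets motor neuron identity, was at 31.4, with 7.73 and 22.1 in the replicates. It lay in an intron, 3433 bp downstream, and was nearer to the start of F55D12.6. The distal peak counted for nhr-85, a relative of Rev-erb, was at 29.1 (7.43 and 22.9), nearer to hpo-2. In both, replicate 1 placed the peak outside its 1910 strongest.

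The dafachronic acid receptor gene daf-12 (WBGene00000908, chrX:10635908-10666875), which controls dauer formation and larval timing, had no IDR summit within 5 kb of its 9 annotated starts. The nearest was 5675 bp away, and the best of 6 pooled promoter summits had a signal of 8.48. None within 5 kb was found either for nhr-8, nhr-6, nhr-41, nhr-67, nhr-111, fax-1 or sex-1, whose nearest IDR summits were from 6540 bp (sex-1) to 47893 bp (nhr-8) away. The gene sex-1, an X-linked repressor of xol-1 in sex determination, and nhr-67, the tailless relative, had no pooled promoter summit. The same held for fax-1, nhr-6, nhr-8 and nhr-111.

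Several receptors with roles in metabolism had promoter peaks. Of 12, 4 had an IDR promoter summit, 33.3% (9.92 to 65.1), against 5.03% of all genes, and 5 a promoter or distal one, against 15.7%. The promoter share of the whole family, 11.7%, lies within that interval. Counted from the annotated 5′ end of each gene only, 2 of the 12 had a promoter summit. With each summit given only to the gene with the nearest start it was 3, as the peak counted for nhr-68 is nearer to H12C20.7. The gene nhr-49 (WBGene00003639, I), an HNF4-type regulator of fat metabolism and the response to fasting, had a promoter peak 344 bp upstream at 55.9, with 11.8 in replicate 1 and 38.5 in replicate 2. It also had an intronic peak 460 bp downstream at 70.5, with 37.6 and 30.2, which contained AGATAG. Both were among the 1910 strongest of each replicate.

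The nhr-62 peak, in a gene required for the longer life of diet-restricted animals, lay 987 bp upstream of a start within an intron, at 56.8. The nhr-114 peak, in a gene that protects the germ line in a diet-dependent way, was at 46.8 (20.6 and 22.5), 243 bp upstream of a start in a coding exon of a longer transcript. The peak near nhr-68, which acts with nhr-10 in the switch to the propionate shunt, was at 41 (15.9 and 22.7). For nhr-10 itself a distal peak 1340 bp upstream was at 38.9 (6.63 and 28.8). No IDR summit lay within 5 kb of nhr-80, nhr-13, nhr-66, nhr-64, nhr-69, nhr-76 or nhr-8.

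Of 5 receptors with roles in stress and immunity, nhr-49 had a promoter summit, and nhr-14, which acts in iron uptake, had a distal one at 39.8 (15.9 and 23.5). Of 4 with neuronal roles, none had a promoter summit (0 to 60.2%), and unc-55 alone had a distal one, which was nearer to F55D12.6. The gene odr-7, which specifies an olfactory neuron, had no pooled promoter summit and its nearest IDR summit was 19026 bp away. Of 5 with roles in timing and sex, nhr-60, which acts in the seam cells of the epidermis, had a promoter summit 339 bp upstream at 42.2 (13.4 and 23.2), and nhr-85 a distal one. Together the receptor lists hold 28 genes, of which 6 had a promoter summit, 21.4% (8.3 to 41), against 5.03% of all genes, and 11 a promoter or distal one, against 15.7%. Over the whole family the shares were 11.7% and 27.8%. Lists of 4 or 5 genes are too short to be read against these shares singly. They were chosen with earlier results of these data known.

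Genes that act with the receptors were counted in the same way. Of 20 such genes 3 had an IDR promoter summit, 15% (3.21 to 37.9), and 9 a promoter or distal one, where 5.03% and 15.7% of all genes did. All 4 cofactor genes had a summit within 5 kb. The p300/CBP acetyltransferase gene cbp-1 had one 882 bp upstream at 76.2, with 30.7 in replicate 1 and 44.9 in replicate 2. The DAF-12 corepressor gene din-1 had one 752 bp upstream at 29.7, with 3.35 and 23.8, and a distal one at 35.9, with 3.46 and 35. The replicate 1 values are those of summits within 100 bp. Its strongest din-1 summits were at 9.86 in the promoter window and 12.4 outside it. Of the 2 cofactor promoter peaks, 1 was left without replicate 2 or in the stronger 955 IDR peaks, and 0 with a window of 500 bp upstream to 100 bp downstream.

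Distal peaks only were found at gei-8, an NCoR relative, at 31.8, and at mdt-15, a Mediator subunit that works with NHR-49, at 40.9, the latter nearer to W04D12.1. These, and the distal genes that follow, were named after their values were seen. Of 5 genes for making hormone ligands, none had a promoter summit (0 to 52.2%), against 5.03% of all genes. Among them emb-8, a cytochrome P450 reductase, had a distal summit at 35.4. The ligand synthesis genes daf-9, daf-36, hsd-1 and dhs-16 had no IDR summit within 5 kb.

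Of 11 genes known as targets of these receptors, 1 had a promoter summit, 9.09% (0.23 to 41.3), against 5.03% of all genes. It was acs-2, an acyl-CoA synthetase gene activated by NHR-49, at 60.1, 726 bp upstream, with 25.4 in replicate 1 and 39.4 in replicate 2. The sex determination switch gene xol-1 had a distal peak 4922 bp upstream at 92.1 (32.1 and 64.2). Distal peaks counted for alh-8 and hphd-1, at 57.6 and 55, were nearer to F13D12.8 and cyd-1. The alh-8 peak had no replicate 1 summit within 100 bp, and the strongest distal replicate 1 summit of that gene was at 11.4. No IDR summit lay within 5 kb of the fatty acid desaturase genes fat-5, fat-6 and fat-7, or of fmo-2, acdh-1, odr-10 and egl-43. The acs-2, cbp-1 and din-1 promoter summits had no WGATAR within 50 bp.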

How the data were processed

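ChIP-seq peak lists of 2 biological replicates in 1 group were used. Relaxed peak calls exist for each replicate and for the pooled data, all made against a control, and the IDR list derives from these, per the authors' library file lists. The control was not analysed here, and the ce10 lists were not used. Each deposited peak has a signal value, a −log10 q value (used only to describe the lists, deposited by the authors) and a summit offset as a count of bases from the peak start. The aligner, the caller and the IDR cut-off were not given in the sources used here.

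Summits on ce11 were set against transcript starts of protein-coding genes of Ensembl release 115 (WBcel235). Promoter windows ran 1000 bp upstream to 200 bp downstream, and distal summits lay outside them within 5 kb. A summit could count for several genes. Summits were matched between lists within 100 bp, and WGATAR was searched within 50 bp on the WBcel235 sequence. Placement in exons and introns used every annotated gene other than piRNA genes. Computations used Python 3.11.15, numpy 2.4.6, pandas 2.3.3, scipy 1.17.1 and matplotlib 3.10.9, and the counting steps were tested on simulated peaks.

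No test was made, since there is no contrast. Read depth is unknown. Named genes are those at the 15 strongest member peaks, members with an IDR promoter summit (beyond 30 only counted by signal), the 12 conserved receptors, daf-12, nhr-49, odr-7, and pathway genes with an IDR promoter summit; others are said to be chosen after their values were seen or complete a list. Members and lists were chosen with earlier results of these data known. Alternatives covered peak strength, either replicate, window sizes, start choice and the relaxed lists.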

Additional observations from a re-analysis of the deposited data

How the results depend on the processing

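With the stronger 955 IDR peaks, 21 members had a promoter summit, 7.69% against 2.39% of all genes, and there were 63 member peaks with a median signal of 56.3, of which 58.7% had WGATAR. With all pooled peaks in place of IDR peaks, 133 members had a promoter summit. With distal summits taken within 10 kb, 91 members had one, and with each summit given to the nearest start, 35. WGATAR within 100 bp was found at 59.8% of member summits. With a promoter window of 500 bp upstream and 100 bp downstream, 24 members had a summit, 8.79% against 3.72% of all genes, and 0 genes of the pathway lists did. With 2000 bp upstream and 500 bp downstream it was 15.8% against 7.18%. In both window settings and with the stronger 955 IDR peaks, the share of members stayed above that of all genes. For distal summits within 10 kb, or with each summit given to the nearest start, the share of all genes was not computed. Without replicate 1 or replicate 2, keeping IDR peaks matched among the strongest of the other, promoter members numbered from 25 to 30, distal members from 49 to 54 and member peaks from 75 to 86. Their WGATAR share ran from 46.5% to 52% and their median signal from 51.7 to 52.7. No paired analysis was possible because there is only 1 group. Depth is unknown, so a member without an IDR summit is not shown to be unbound.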

Other observations

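A pooled promoter summit was present at 48.7% of members, against 41.2% of all genes. Of the members, 101 had a pooled but no IDR summit in the promoter window, and 140 had no pooled summit there. The strongest of the former, named after their values were seen, were nhr-44 at a pooled signal of 26.3, nhr-74 at 25.4, nhr-3 at 23.7, nhr-256 at 23.4 and nhr-57, which responds to hypoxia, at 22.6. The lowest signal of the IDR list was 27.7, so these lay below it, at pooled ranks from 2068 (nhr-44) to 2588 (nhr-57). In the replicates, nhr-44 was at 7.37 and 16.3, and nhr-57 at 15 and 11.3. The gene dpr-1 had a pooled promoter summit of 20.7, with its nearest IDR summit 21260 bp away. Distal IDR peaks also lay in introns of nhr-31 and nhr-40, genes known for roles in the excretory cell and in body wall muscle, at 38.1 (19.3 in replicate 1 and 24.3 in replicate 2) and 32.3 (13.6 and 24.8).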
